A study of Mus musculus with 30 samples.

Results

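Keratins are the filament proteins of epithelial cells, and which of them a cell makes follows its layer and its appendage. The 48 genes described here are all those with a symbol of the form Krt followed by digits alone and a row of their own on the arrays, of 19938 genes in all, and each had 1 such row. They were read in tumours that EL4 cells form under the skin; EL4 is a mouse lymphoma line of T cell origin and is not epithelial. The tumour samples fall into 6 groups of 5, with 1 Affymetrix gene array each. The groups are antibiotic and water mice at 0, 6 and 18 h after oxaliplatin, a platinum drug that damages DNA. The labels do not say that the 5 samples of a group came from separate mice. All mice were wild type, carried EL4 cells injected under the skin of the flank, and received oxaliplatin at 10 mg/kg into the peritoneum 7 days later. The antibiotic mice had been on an antibiotic cocktail for 3 weeks before the cells were injected, and the water mice had been left untreated. Tumours without oxaliplatin at 6 or 18 h were not analysed here, so time after the drug and the drug itself cannot be told apart. Arrays are named by group and a number from 1 to 5, which only names an array and pairs none between groups.

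Keratins work in pairs of a type I and a type II chain. The basal layer of the epidermis makes Krt5 with Krt14, and the layers above it switch to Krt1 with Krt10. The hair follicle continues the basal layer as the outer root sheath, which also makes Krt17, and forms inside it a companion layer marked by Krt75, an inner root sheath that moulds the growing hair (Krt71 with Krt25, Krt27 and Krt28, among others) and the hair shaft itself (Krt31, Krt34, Krt35 and their relatives). The inner root sheath and the shaft are built only while a follicle grows, and the bulbs of growing follicles reach down into the fat under the skin. Simple epithelia of glands and inner organs make Krt8 with Krt18 instead. By these roles the 48 genes comprise 3 basal, 5 suprabasal, 4 outer root sheath and companion layer, 8 inner root sheath, 12 hair shaft, 5 simple, 4 mucosal or corneal and 7 other keratins. Of these, 25 lie on chromosome 11, which holds the type I cluster of the mouse, and 23 on chromosome 15, which holds the type II cluster. The counts are of chromosomes, not of chain types. Krt81, Krt83 and Krt85, also hair shaft keratins, had no row with a single symbol and were not used. Neighbouring keratins are alike in sequence, and how far their probes share signal was not tested.

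All values below are log2 expression values as deposited, so that a difference of 1 is a doubling. The T cell markers Cd3e, a chain of the T cell receptor complex, and Thy1, a T cell surface protein, were high on every array. Cd3e lay between 11.12 and 11.52 and Thy1 between 11.74 and 12.24. Small differences between groups were called for Cd3e and for Cd3d, another chain of that complex, and are given below. Keratins varied far more between arrays of the same group than most genes did. The SD left within groups, in a model of 6 group means, had a median of 0.203 over the 48 keratins and 0.115 over all genes. Of the 199 genes with the largest such SD, 1% of all, 16 were keratins (33.3% of the 48): 7 of the inner root sheath, 4 of the outer root sheath and companion layer, 2 basal, 2 suprabasal and 1 of the hair shaft. Krt25 ranked 5 of 19938 with an SD of 1.66, Krt71 ranked 15 with 1.16, Krt1 ranked 17 with 1.10 and Krt17 ranked 20 with 1.08. The simple and the mucosal or corneal keratins were flat: none of these genes departed from its own median over the 30 arrays by more than 0.424.

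To see which keratins were high on which array, each value was set against the gene's own median over the 30 arrays. A gene more than 1 above it was counted as in excess on that array. This happened for 20 of the 48 keratins and on 10 of the 30 arrays, in 58 pairs of keratin and array, while 28 keratins were in excess on no array. By group, the arrays with any keratin in excess numbered 0 for antibiotics and 2 for water at 0 h, 3 for antibiotics and 3 for water at 6 h, and 1 for antibiotics and 1 for water at 18 h. A keratin that is high on most arrays has a high median, so this count can miss it. The median of Krt25, of the inner root sheath, was 8.82, and on antibiotic 0 h arrays Krt25 reached 9.64 without being in excess. The map of all 48 keratins by array shows blocks that follow the layers, not the whole family moving as one.

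**Figure D1:**
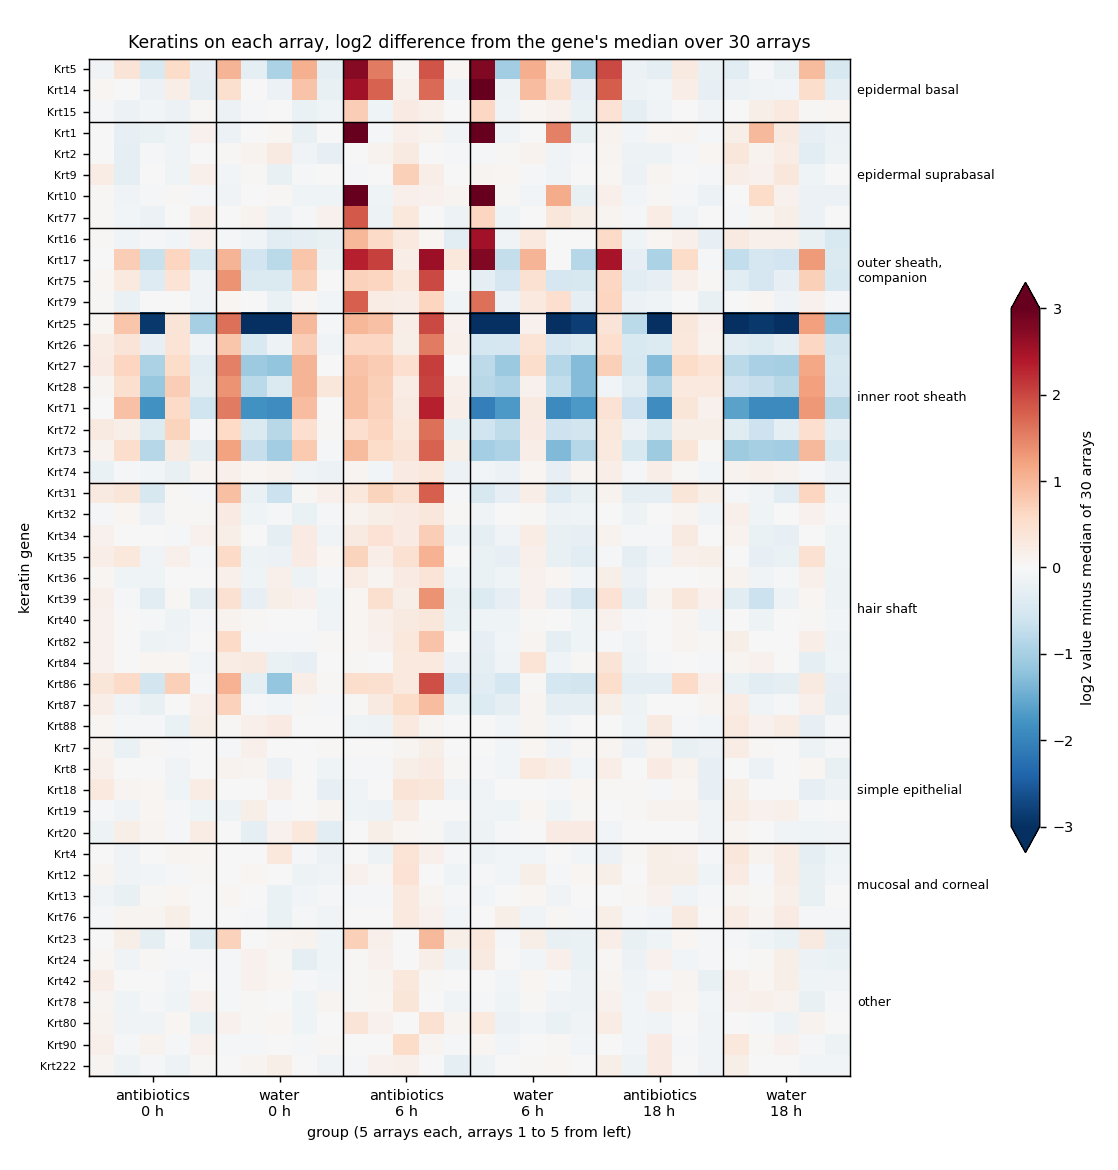
Each row is a keratin, grouped by the layer it marks, and each column is an array, in 6 groups of 5; colour gives the log2 value minus the gene's median over the 30 arrays, from -3 (dark blue) to 3 (dark red). Krt1 and Krt10 are dark red on antibiotic 6 h array 1 and water 6 h array 1, inner root sheath keratins are red on antibiotic 6 h array 4 and blue on most water 6 h and 18 h arrays, and the simple and mucosal keratins stay near white.

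The basal keratins Krt5 and Krt14 were high on single arrays of several groups. At 0 h, Krt5 stood at 7.30, 7.79, 6.95, 7.94 and 7.15 on antibiotic arrays 1 to 5, against 8.42, 7.13, 6.46, 8.47 and 7.14 on water arrays 1 to 5. At 6 h, Krt5 stood at 10.12, 8.95, 7.48, 9.29 and 7.46 on antibiotic arrays 1 to 5, against 10.17, 6.36, 8.48, 7.68 and 6.34 on water arrays 1 to 5. At 18 h, Krt5 stood at 9.38, 7.22, 7.12, 7.66 and 7.17 on antibiotic arrays 1 to 5, against 7.06, 7.33, 7.17, 8.35 and 6.92 on water arrays 1 to 5. The highest values were those of array 1 of both 6 h groups and of antibiotic 18 h array 1, and the groups overlapped at every time. Its partner Krt14 went with it. At 0 h, Krt14 measured 6.57, 6.53, 6.35, 6.73 and 6.26 on antibiotic arrays 1 to 5, against 7.00, 6.52, 6.35, 7.37 and 6.31 on water arrays 1 to 5. At 6 h, Krt14 measured 9.04, 8.28, 6.69, 8.23 and 6.37 on antibiotic arrays 1 to 5, against 10.14, 6.36, 7.46, 7.00 and 6.28 on water arrays 1 to 5. At 18 h, Krt14 measured 8.33, 6.36, 6.44, 6.73 and 6.28 on antibiotic arrays 1 to 5, against 6.35, 6.41, 6.45, 7.04 and 6.26 on water arrays 1 to 5. Here several of the 5 antibiotic 6 h arrays lay above 8, while at 0 h every array lay between 6.26 and 7.37. Krt15, which marks basal cells and the stem cells of the follicle bulge, moved much less. At 0 h, Krt15 read 6.75, 6.62, 6.71, 6.62 and 6.83 on antibiotic arrays 1 to 5, against 6.62, 6.74, 6.78, 6.59 and 6.66 on water arrays 1 to 5. At 6 h, Krt15 read 7.53, 6.66, 7.04, 6.95 and 6.80 on antibiotic arrays 1 to 5, against 7.41, 6.69, 6.84, 6.92 and 6.59 on water arrays 1 to 5. At 18 h, Krt15 read 7.21, 6.52, 6.69, 6.80 and 6.68 on antibiotic arrays 1 to 5, against 6.81, 6.98, 7.08, 6.83 and 6.85 on water arrays 1 to 5. Its values at 6 h were highest on array 1 of each group, and they overlapped between antibiotics and water at all 3 times.

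Krt1 and Krt10, the pair of the differentiating epidermis above the basal layer, were low and level on most arrays and very high on a few. At 0 h, Krt1 stood at 5.62, 5.40, 5.43, 5.50 and 5.76 on antibiotic arrays 1 to 5, against 5.46, 5.65, 5.69, 5.42 and 5.64 on water arrays 1 to 5. At 6 h, Krt1 stood at 9.73, 5.58, 5.78, 5.73 and 5.53 on antibiotic arrays 1 to 5, against 9.93, 5.54, 5.63, 7.16 and 5.42 on water arrays 1 to 5. At 18 h, Krt1 stood at 5.75, 5.57, 5.69, 5.73 and 5.59 on antibiotic arrays 1 to 5, against 5.82, 6.60, 5.90, 5.39 and 5.46 on water arrays 1 to 5. Array 1 of the antibiotic and of the water 6 h group stood out, 4.09 and 4.29 above the median of Krt1, with water 6 h array 4 next and water 18 h array 2 after it. At 0 h, Krt10 measured 6.47, 6.33, 6.38, 6.45 and 6.37 on antibiotic arrays 1 to 5, against 6.32, 6.44, 6.47, 6.29 and 6.30 on water arrays 1 to 5. At 6 h, Krt10 measured 10.27, 6.30, 6.57, 6.56 and 6.50 on antibiotic arrays 1 to 5, against 9.82, 6.46, 6.35, 7.55 and 6.21 on water arrays 1 to 5. At 18 h, Krt10 measured 6.58, 6.34, 6.45, 6.36 and 6.25 on antibiotic arrays 1 to 5, against 6.40, 6.98, 6.54, 6.25 and 6.24 on water arrays 1 to 5. Krt10 singled out the same arrays, 3.85 above its median on antibiotic 6 h array 1, 3.39 on water 6 h array 1 and 1.12 on water 6 h array 4. Krt77, listed with the suprabasal keratins, was 1.85 above its median on antibiotic 6 h array 1 and 0.63 on water 6 h array 1. Krt2 and Krt9, best known from special sites such as the sole, were in excess on no array.

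Krt16 and Krt17 are made by the outer root sheath and are switched on in wounded or stressed epidermis. Krt16 was 1.01 above its median on antibiotic 6 h array 1 and 2.52 on array 1 of the water 6 h group, and in excess nowhere else. At 0 h, Krt17 stood at 7.33, 8.05, 6.66, 7.96 and 6.87 on antibiotic arrays 1 to 5, against 8.33, 6.75, 6.50, 8.16 and 7.16 on water arrays 1 to 5. At 6 h, Krt17 stood at 9.64, 9.37, 7.51, 9.88 and 7.62 on antibiotic arrays 1 to 5, against 10.09, 6.60, 8.33, 7.30 and 6.46 on water arrays 1 to 5. At 18 h, Krt17 stood at 9.78, 7.07, 6.37, 7.88 and 7.27 on antibiotic arrays 1 to 5, against 6.57, 6.81, 6.74, 8.59 and 6.89 on water arrays 1 to 5. Krt17 passed 9 on several antibiotic 6 h arrays, on water 6 h array 1 and, at 18 h, on antibiotic array 1, and it spread widely within every group. Krt75 belongs to the companion layer, between the outer and inner root sheaths. At 0 h, Krt75 measured 7.59, 7.82, 7.15, 7.93 and 7.42 on antibiotic arrays 1 to 5, against 8.88, 7.09, 7.08, 8.25 and 7.54 on water arrays 1 to 5. At 6 h, Krt75 measured 8.21, 8.17, 7.84, 9.51 and 7.52 on antibiotic arrays 1 to 5, against 7.24, 7.01, 7.98, 7.02 and 7.05 on water arrays 1 to 5. At 18 h, Krt75 measured 8.15, 7.20, 7.27, 7.68 and 7.56 on antibiotic arrays 1 to 5, against 7.20, 7.03, 7.28, 8.24 and 7.07 on water arrays 1 to 5. It was highest on antibiotic 6 h array 4 and water 0 h array 1, and on water 6 h array 1, where Krt1 and Krt14 were highest, it lay 0.29 below its median. Krt79 marks the funnel of the follicle at the skin surface and the sebaceous duct. At 0 h, Krt79 read 6.95, 6.71, 6.89, 6.88 and 6.80 on antibiotic arrays 1 to 5, against 6.97, 6.92, 6.70, 6.93 and 6.83 on water arrays 1 to 5. At 6 h, Krt79 read 8.70, 7.14, 7.09, 7.56 and 6.78 on antibiotic arrays 1 to 5, against 8.55, 6.73, 7.19, 7.40 and 6.61 on water arrays 1 to 5. At 18 h, Krt79 read 7.55, 6.72, 6.78, 6.90 and 6.69 on antibiotic arrays 1 to 5, against 6.91, 6.96, 6.80, 7.04 and 6.85 on water arrays 1 to 5. Krt79 was in excess on array 1 of both 6 h groups, the arrays high in Krt1 and Krt10.

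Krt25 of the inner root sheath had the widest range of the 48 keratins over the arrays, 5.47. At 0 h, Krt25 stood at 8.88, 9.64, 5.92, 9.20 and 7.82 on antibiotic arrays 1 to 5, against 10.46, 5.79, 5.46, 9.79 and 8.76 on water arrays 1 to 5. At 6 h, Krt25 stood at 9.82, 9.69, 9.02, 10.80 and 8.95 on antibiotic arrays 1 to 5, against 5.72, 5.67, 8.94, 5.40 and 5.99 on water arrays 1 to 5. At 18 h, Krt25 stood at 9.20, 8.01, 5.33, 9.17 and 8.96 on antibiotic arrays 1 to 5, against 5.69, 5.93, 5.76, 10.05 and 7.63 on water arrays 1 to 5. In the order of all 30 arrays the values of Krt25 broke into a low run from 5.33 to 5.99, with 11 arrays, and a run from 7.63 to 10.80, with 19 arrays, and the step of 1.65 between them was the widest. The low run held 2 of 15 antibiotic and 9 of 15 water arrays. By time it held 1 antibiotic and 2 water arrays at 0 h, 0 antibiotic and 4 water arrays at 6 h, and 1 antibiotic and 3 water arrays at 18 h. These counts are a description of the order and carry no test. Krt71, the type II partner, had the same shape. At 0 h, Krt71 measured 8.59, 9.46, 6.77, 9.15 and 7.97 on antibiotic arrays 1 to 5, against 10.14, 6.76, 6.71, 9.49 and 8.57 on water arrays 1 to 5. At 6 h, Krt71 measured 9.48, 9.27, 8.84, 10.90 and 8.78 on antibiotic arrays 1 to 5, against 6.53, 6.86, 8.84, 6.67 and 6.84 on water arrays 1 to 5. At 18 h, Krt71 measured 9.02, 7.96, 6.71, 8.93 and 8.71 on antibiotic arrays 1 to 5, against 6.96, 6.66, 6.66, 9.88 and 7.74 on water arrays 1 to 5. Its 11 lowest arrays, at 6.53 to 6.96, were the 11 lowest of Krt25, and its next array stood at 7.74. The same 11 arrays were also the lowest 11 for Krt27, Krt72 and Krt73, and 10 of them for Krt28 and 9 for Krt26. Krt74 shared 4 of them and ranged over only 0.571. Trichohyalin (Tchh), no keratin but the protein that fills inner root sheath cells, again had these 11 lowest, at 6.53 to 7.18 against 7.73 to 10.76 on the other arrays. Krt10 shared 1, Krt1 shared 3 and the T cell gene Cd3e shared 4 of the 11.

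The promoters of the inner root sheath keratins, whose levels varied together, were read for short words. RefSeq promoters of GRCm38.p6, from 250 bases before to 50 after the start, were found for 35 of the 48 keratins (36 promoters). Krt25, Krt71 and Krt73 of the inner root sheath are shown, with Krt10 of the suprabasal epidermis set beside them, each on the minus strand of its chromosome and printed 5′ to 3′ along the gene. Capitals mark 2 words, which did not overlap: TATAAA, the core promoter box of many tissue-specific genes, and AGATAA, a word read by factors of the Gata family. Both strands were searched.
Krt25 (chr11:99322902-99323201): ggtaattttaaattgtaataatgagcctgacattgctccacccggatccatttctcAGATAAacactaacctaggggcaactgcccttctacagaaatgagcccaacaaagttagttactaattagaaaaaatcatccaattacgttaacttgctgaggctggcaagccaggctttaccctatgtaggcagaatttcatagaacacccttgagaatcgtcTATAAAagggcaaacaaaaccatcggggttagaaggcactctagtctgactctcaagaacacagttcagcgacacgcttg
Krt71 (chr15:101743048-101743347): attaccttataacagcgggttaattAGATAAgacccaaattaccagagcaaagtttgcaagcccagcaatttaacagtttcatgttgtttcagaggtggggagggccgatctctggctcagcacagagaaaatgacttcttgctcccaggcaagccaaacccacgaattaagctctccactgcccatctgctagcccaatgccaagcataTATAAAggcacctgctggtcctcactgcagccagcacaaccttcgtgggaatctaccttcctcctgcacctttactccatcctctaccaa
Krt73 (chr15:101802311-101802610): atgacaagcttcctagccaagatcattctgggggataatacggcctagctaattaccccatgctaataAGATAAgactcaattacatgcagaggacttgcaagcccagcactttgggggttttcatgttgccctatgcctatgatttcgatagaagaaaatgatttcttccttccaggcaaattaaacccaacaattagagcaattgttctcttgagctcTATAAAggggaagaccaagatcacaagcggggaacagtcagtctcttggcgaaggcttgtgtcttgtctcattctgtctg
Krt10 (chr11:99389315-99389614): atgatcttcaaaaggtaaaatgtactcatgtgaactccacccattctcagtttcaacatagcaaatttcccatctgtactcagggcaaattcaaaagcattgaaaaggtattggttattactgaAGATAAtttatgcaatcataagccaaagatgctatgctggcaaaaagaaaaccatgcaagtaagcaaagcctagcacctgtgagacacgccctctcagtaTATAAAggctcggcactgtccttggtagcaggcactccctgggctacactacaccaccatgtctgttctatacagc
TATAAA began 30 bases before the start in Krt25 and Krt73, 40 in Krt71 and 26 in Krt10. All 7 inner root sheath promoters found held it (100%), against 5 of 8 hair shaft promoters, 18 of 36 keratin promoters and 13.6% of all 32851 promoters of the same length. AGATAA was in 4 of the 7 inner root sheath promoters (Krt25, Krt27, Krt71 and Krt73), in 0 of 8 hair shaft promoters, in 10 of 36 keratin promoters and in 11.2% of all promoters. Beside Krt10, both words were also found in Krt8 and Krt20 of the simple and Krt76 of the mucosal or corneal class, whose levels were flat. Of the 4 simple keratin promoters, 2 held each word. Gata3, a member of that family, is known from mouse to be needed for the inner root sheath. CTTTGAA, a LEF/TCF-type word known from hair keratin promoters, was in 4 of 8 hair shaft promoters (Krt31, Krt32, Krt34 and Krt39), in 1 of 7 of the inner root sheath (Krt28) and in 5.14% of all promoters. GCCNNNGGC, an AP-2-type word, was in 7 of 36 keratin promoters and 16.6% of all, and TGANTCA, an AP-1-type word, in 2 of 36, both of Krt13, and 7.81% of all. The 5 words were chosen with some of these sequences in view, and a match shows letters, not a site in use.

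Hair shaft keratins moved on a smaller scale. At 0 h, Krt31 stood at 7.10, 7.18, 6.33, 6.86 and 6.78 on antibiotic arrays 1 to 5, against 7.73, 6.61, 6.18, 6.86 and 6.96 on water arrays 1 to 5. At 6 h, Krt31 stood at 7.13, 7.48, 7.29, 8.62 and 6.78 on antibiotic arrays 1 to 5, against 6.34, 6.57, 7.02, 6.44 and 6.59 on water arrays 1 to 5. At 18 h, Krt31 stood at 6.93, 6.53, 6.52, 7.17 and 6.99 on antibiotic arrays 1 to 5, against 6.75, 6.72, 6.48, 7.46 and 6.68 on water arrays 1 to 5. Krt31, of the shaft's cortex, was highest on antibiotic 6 h array 4, then on water 0 h array 1. Only 4 of the 12 hair shaft keratins were ever in excess, namely Krt31, Krt35, Krt39 and Krt86, and all 4 were on antibiotic 6 h array 4. Krt86 was also in excess on water 0 h array 1.

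The simple keratins give a flat reference beside these. At 0 h, Krt8 stood at 7.64, 7.49, 7.49, 7.39 and 7.49 on antibiotic arrays 1 to 5, against 7.59, 7.58, 7.31, 7.47 and 7.36 on water arrays 1 to 5. At 6 h, Krt8 stood at 7.44, 7.44, 7.66, 7.73 and 7.53 on antibiotic arrays 1 to 5, against 7.45, 7.42, 7.78, 7.69 and 7.41 on water arrays 1 to 5. At 18 h, Krt8 stood at 7.69, 7.49, 7.73, 7.60 and 7.25 on antibiotic arrays 1 to 5, against 7.50, 7.30, 7.50, 7.54 and 7.26 on water arrays 1 to 5. Its partner Krt18 was as even. At 0 h, Krt18 measured 6.77, 6.55, 6.53, 6.35 and 6.69 on antibiotic arrays 1 to 5, against 6.47, 6.47, 6.63, 6.48 and 6.22 on water arrays 1 to 5. At 6 h, Krt18 measured 6.36, 6.46, 6.85, 6.80 and 6.36 on antibiotic arrays 1 to 5, against 6.35, 6.46, 6.46, 6.41 and 6.52 on water arrays 1 to 5. At 18 h, Krt18 measured 6.50, 6.51, 6.44, 6.53 and 6.23 on antibiotic arrays 1 to 5, against 6.63, 6.45, 6.46, 6.21 and 6.32 on water arrays 1 to 5. The whole range over 30 arrays was 7.25 to 7.78 for Krt8 and 6.21 to 6.85 for Krt18, and the groups overlapped at each time.

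The keratins in excess differed from array to array. On antibiotic 6 h array 1 these were 9 of 48 keratins, against 0.451% of all genes: Krt1, Krt10, Krt5, Krt14, Krt17, Krt77, Krt79, Krt16 and, at 1.00 above its median, Krt25. On water 6 h array 1 there were 7 of 48, against 0.502% of all genes: Krt1, Krt14, Krt10, Krt17, Krt5, Krt16 and Krt79. Basal and suprabasal keratins were thus in excess on both arrays, but the inner root sheath differed between them. Krt25 lay 1.00 above its median on antibiotic 6 h array 1 and 3.10 below it on water 6 h array 1, and Krt71 lay 0.90 above and 2.04 below. Genes of the cornified envelope were in excess on both of these arrays. Of 22 measured epidermal barrier genes, 13 were in excess on antibiotic 6 h array 1 (list median 1.34) and 15 on water 6 h array 1 (list median 1.68). Loricrin (Lor), the main envelope protein, was 2.48 and 2.43 above its median on those arrays, and Hrnr, of the filaggrin family, 2.72 and 2.78. On water 6 h array 4 only Krt1 and Krt10 were in excess, 2 of 48 against 0.0251% of all genes, while Krt25, Krt71 and Krt73 were each more than 1 below their medians. There 0 of the 22 barrier genes were in excess (list median -0.016), with Lor 0.39 and Hrnr 0.37 above their medians. On arrays with no suprabasal keratin in excess, 3 barrier genes were in excess on antibiotic 6 h array 2, 3 on antibiotic 6 h array 4, 2 on antibiotic 18 h array 1 and 1 on water 0 h array 1.

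On antibiotic 6 h array 4 the keratins of the follicle led. It had 15 of 48 keratins in excess, against 0.562% of all genes, and was the only array with 10 or more: 7 of 8 inner root sheath, 4 of 12 hair shaft, 2 outer root sheath and companion and 2 basal keratins, with 0 of 5 suprabasal. The 5 furthest above their medians were Krt17 by 2.56, Krt71 by 2.32, Krt27 by 2.07, Krt28 by 2.04 and Krt75 by 1.99. The 5 other genes furthest above theirs on that array were all keratin-associated proteins, the matrix of the hair shaft: Krtap19-1 by 5.03, Krtap19-3 by 4.56, Krtap19-2 by 4.49, Krtap19-5 by 4.25 and Krtap6-1 by 4.03. The 5 leading genes other than keratins were also all keratin-associated proteins on antibiotic 6 h array 2, water 0 h arrays 1 and 4 and water 18 h array 4. On antibiotic 6 h array 4 itself, Krt1 and Krt10 lay 0.10 and 0.14 above their medians. Water 0 h array 1 had the same kind of profile, with 9 of 48 keratins in excess against 0.301% of all genes, 5 of them of the inner root sheath, and so had water 18 h array 4, with 5 of 48 against 0.401%, 4 of them of the inner root sheath. The median over the 8 inner root sheath keratins was 1.88 on antibiotic 6 h array 4, 1.27 on water 0 h array 1 and 1.07 on water 18 h array 4.

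On other arrays the only keratins in excess were basal ones and Krt17. Krt17, Krt14 and Krt5 were the 3 keratins in excess on antibiotic 6 h array 2 (against 0.236% of all genes) and likewise on array 1 of the antibiotic 18 h group (0.231%). Krt5 and Krt17 were the 2 in excess on water 6 h array 3 (0.1%). Genes of the follicle were high on these arrays too. Of 44 keratin-associated proteins, 18 were in excess on antibiotic 6 h array 2, 19 on antibiotic 18 h array 1 and 13 on water 6 h array 3, beside 36 on antibiotic 6 h array 4. Krtap19-1 was 4.74 above its median on antibiotic 6 h array 2, and Krtap19-3 was 3.05 above on antibiotic 18 h array 1 and 2.79 above on water 6 h array 3. Tchh, trichohyalin of the inner root sheath, lay 1.43, 1.02 and 0.58 above its median on antibiotic 6 h array 2, antibiotic 18 h array 1 and water 6 h array 3. The median over the 8 inner root sheath keratins was 0.67, 0.34 and 0.22 above on the same arrays. Krt25 stood at 9.69, 9.20 and 8.94 on them, all in its higher run. It was not counted as in excess there because its median, 8.82, is itself in that run. On water 0 h array 4, Krt5 and the inner root sheath keratins Krt27 and Krt28 were in excess, 3 of 48 against 0.125%, and 11 of 44 keratin-associated proteins. The outer root sheath continues the basal layer, so Krt5 does not tell epidermis from follicle. Krt1 and Krt10 lay 0.22 and 0.14 below their medians there. Keratin-associated proteins could also be in excess where no keratin was. Examples are 11 of 44 on antibiotic 0 h array 2, against 0.0702% of all genes, and 12 of 44 on antibiotic 18 h array 4, against 0.0853%. In the plot of Krt10 against Krt25, the arrays high in Krt10 lie at both ends of the Krt25 range, and most arrays high in Krt25 lie near the median of Krt10.

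**Figure D2:**
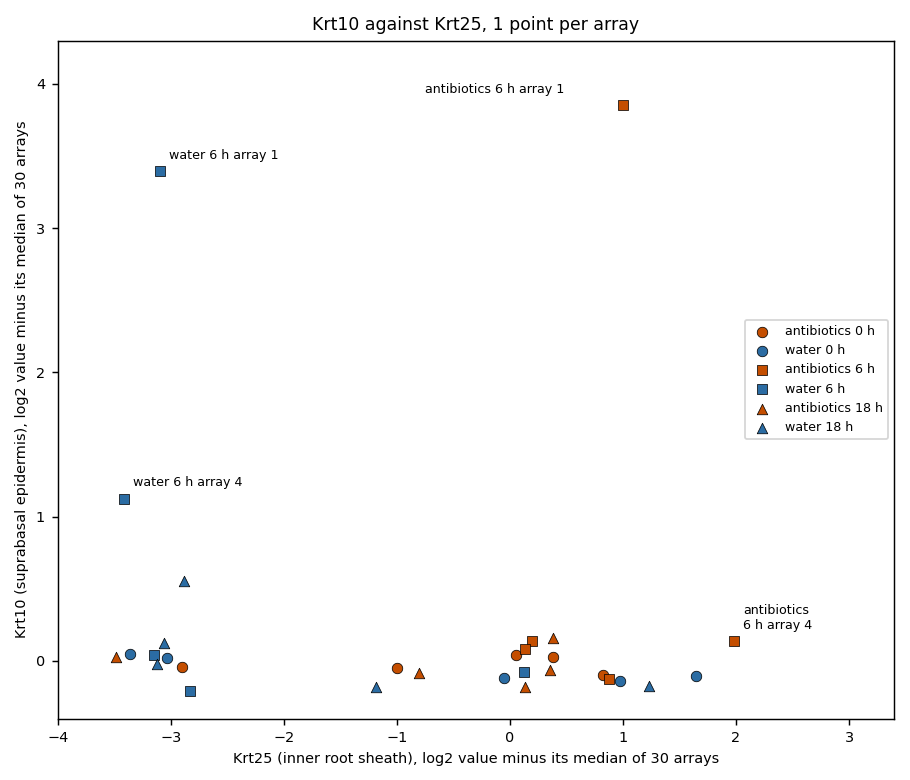
Each point is 1 array, placed by Krt25 (horizontal) and Krt10 (vertical), both as log2 value minus the gene's median over the 30 arrays; colour gives the treatment and shape the time. Krt10 was 3.85 and 3.39 above its median on array 1 of the antibiotic and water 6 h groups, which lie 1.00 above and 3.10 below the median of Krt25, while antibiotic 6 h array 4, highest in Krt25 at 1.98, lies at 0.14 for Krt10.

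The next question was whether keratins differed between antibiotic and water tumours. In bulk tumours, fewer cells of a type and less RNA per cell cannot be told apart. At 6 h, 6 of 48 keratins passed an adjusted p of 0.05 in limma with Benjamini-Hochberg adjustment over all genes, all higher with antibiotics, against 3.77% of all genes called, 1.13% higher and 2.64% lower. They were 3 of 8 inner root sheath keratins (Krt28, Krt72 and Krt73) and 3 of 12 hair shaft keratins (Krt34, Krt35 and Krt87). None of the 3 basal, 5 suprabasal, 4 outer root sheath and companion, 5 simple, 4 mucosal or corneal and 7 other keratins passed. At an unadjusted p under 0.05 the count was 21 of 48, all higher, where 8.25% of all genes were higher and 11.7% lower. Many keratins rose and fell on the same arrays, so this count and the like counts below do not stand for separate events. The median log2 fold change was 1.54 over the 8 inner root sheath keratins, 0.42 over the 12 of the hair shaft, 0.57 over the 4 of the outer root sheath and companion layer, 0.28 over the 3 basal, 0.076 over the 5 suprabasal and 0.045 over the 5 simple keratins, beside 0.011 over all genes. It was 0.078 over the 4 mucosal or corneal and 0.13 over the 7 other keratins.

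The 3 inner root sheath keratins that passed rose as follows. At 6 h, Krt28 stood at 7.32, 7.15, 6.65, 8.46 and 6.58 on antibiotic arrays 1 to 5, against 5.60, 5.49, 6.55, 5.69 and 5.13 on water arrays 1 to 5. That is a log2 fold change of 1.54 ± 0.43 (SE, limma adjusted p = 0.0407), and every antibiotic array lay above every water array. At 6 h, Krt73 measured 8.37, 7.99, 7.81, 9.20 and 7.61 on antibiotic arrays 1 to 5, against 6.42, 6.51, 7.62, 6.10 and 6.58 on water arrays 1 to 5. Its log2 fold change was 1.55 ± 0.42 (limma adjusted p = 0.0358), and water array 3 alone reached the antibiotic range. At 6 h, Krt72 read 7.40, 7.55, 7.23, 8.57 and 6.68 on antibiotic arrays 1 to 5, against 6.31, 6.15, 7.16, 6.28 and 6.36 on water arrays 1 to 5. Its log2 fold change was 1.03 ± 0.29 (limma adjusted p = 0.0407), and again water array 3 was the one that overlapped. Of the hair shaft, Krt35, among the first keratins made in the growing shaft, rose by 0.64 ± 0.16 (limma adjusted p = 0.0261). At 6 h, Krt35 stood at 7.63, 7.16, 7.43, 8.02 and 6.97 on antibiotic arrays 1 to 5, against 6.77, 6.71, 7.13, 6.75 and 6.65 on water arrays 1 to 5. Antibiotic array 5 and water array 3 were the ones that overlapped. At 6 h, Krt34 measured 7.19, 7.33, 7.16, 7.64 and 6.77 on antibiotic arrays 1 to 5, against 6.63, 6.80, 7.14, 6.68 and 6.65 on water arrays 1 to 5. Krt34 rose by 0.44 ± 0.12 (limma adjusted p = 0.0385), with antibiotic array 5 inside the water range. At 6 h, Krt87 read 7.99, 8.23, 8.49, 8.87 and 7.74 on antibiotic arrays 1 to 5, against 7.54, 7.65, 8.04, 7.65 and 7.67 on water arrays 1 to 5. Krt87 rose by 0.56 ± 0.16 (limma adjusted p = 0.0444), with antibiotic arrays 1 and 5 inside the water range.

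Krt25 and Krt71 had larger but noisier differences and did not pass. At 6 h Krt25 averaged 9.66 ± 0.75 with antibiotics and 6.34 ± 1.47 with water (SD, n = 5 each), a log2 fold change of 3.31 ± 0.98 (SE, limma adjusted p = 0.0532). The antibiotic arrays ran from 8.95 to 10.80 and the water arrays from 5.40 to 8.94, so the groups did not overlap, by a narrow margin. Krt71 averaged 9.45 ± 0.86 with antibiotics and 7.15 ± 0.95 with water, a log2 fold change of 2.31 ± 0.68 (limma adjusted p = 0.0540). Krt25 and Krt28 were the 2 of 48 keratins whose groups did not overlap at 6 h, where 4.95% of all genes did not. Krt75 (0.99 ± 0.33, limma adjusted p = 0.0859) and Krt31 (0.87 ± 0.27, limma adjusted p = 0.0636) did not pass either. The basal and suprabasal keratins were not called. The errors were wide for Krt5 (0.86 ± 0.60), Krt14 (0.28 ± 0.53), Krt1 (-0.27 ± 0.65) and Krt10 (-0.04 ± 0.55). Krt15 had a small difference with a narrower error (0.10 ± 0.14). For Krt17 the difference was 1.05 ± 0.64, for Krt79 0.16 ± 0.28, for Krt8 0.01 ± 0.09 and for Krt18 0.13 ± 0.10.

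**Figure D3:**
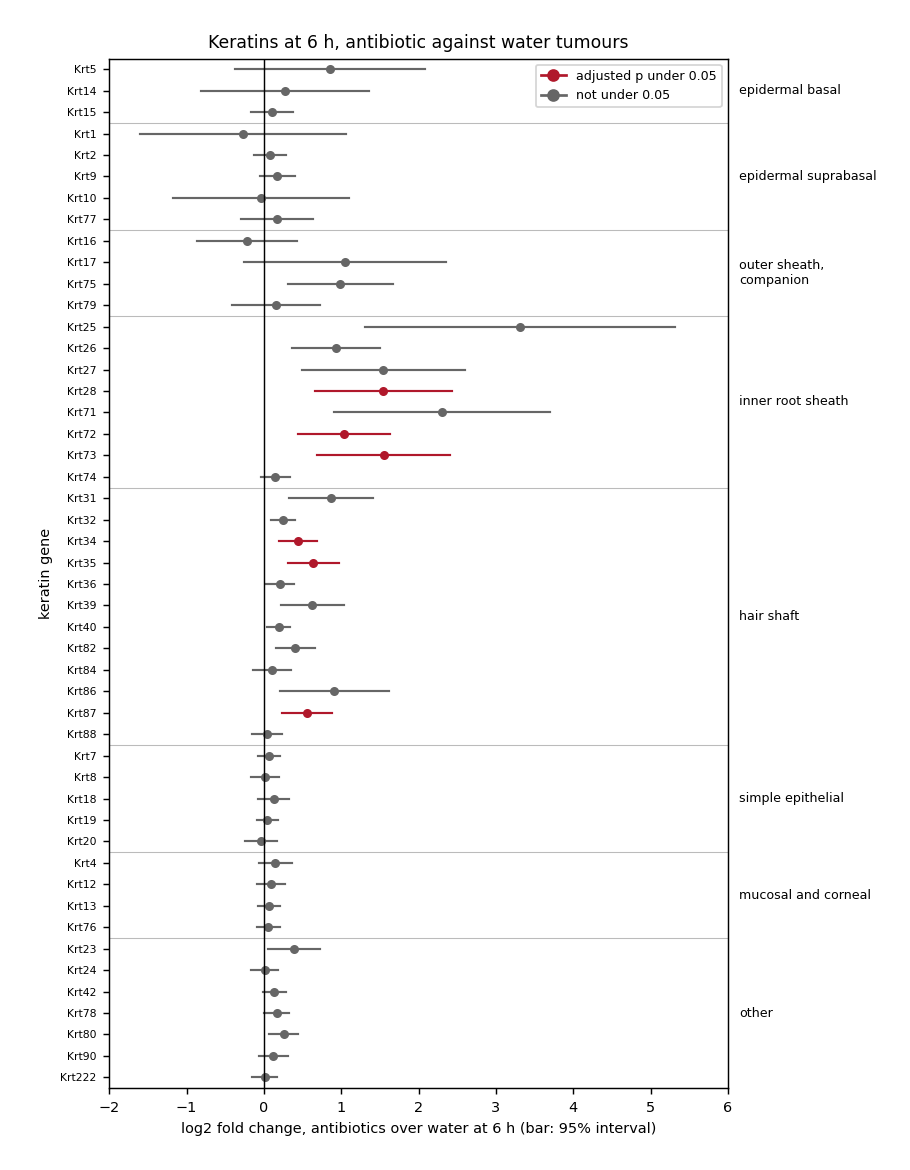
Points are log2 fold changes of antibiotic over water tumours at 6 h for the 48 keratins, grouped by layer, with 95% intervals from limma on 5 arrays a group; red marks an adjusted p under 0.05 over all genes. All 8 inner root sheath and all 12 hair shaft points lie to the right of 0, the 6 red ones among them. So do all 3 basal, all 4 mucosal or corneal and all 7 other points. Of the remaining classes, 3 of 4 outer root sheath and companion, 4 of 5 simple and 3 of 5 suprabasal points lie there. The intervals of Krt1 and Krt10 reach far to both sides.

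The count of 6 rests on single arrays and on how the error was estimated. Without 1 antibiotic 6 h array (1 to 5 in turn) it was 4, 2, 0, 0 and 18, and without 1 water 6 h array (1 to 5) it was 1, 0, 11, 0 and 0. It was 0 when only the 10 arrays compared were fitted, 0 without array 1 of both groups (an alternative chosen after seeing the data), and 19 when limma weighted the arrays. The fold change itself stayed above 0 in every alternative for Krt25 (3.03 to 3.96), Krt71 (1.94 to 2.73), Krt28 (1.24 to 1.81), Krt73 (1.30 to 1.81) and Krt72 (0.76 to 1.31), and it changed sign in some for Krt1 (-1.08 to 0.53) and Krt10 (-0.80 to 0.60).

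Marker lists of other cells were read on the same arrays. At 6 h, antibiotics against water, 4 of 19 hair follicle genes that are no keratins passed, all higher (Msx2, Dlx3, Hoxc13 and Crym), as did 4 of 44 keratin-associated proteins (Krtap1-3, Krtap5-2, Krtap5-4 and Krtap4-7) and 3 of 6 melanocyte genes (Pmel, Dct and Tyrp1), pigment cells being a part of the growing hair bulb. Over all genes, 3.77% passed in that comparison, 1.13% higher and 2.64% lower. Against that share, 0 of 22 epidermal barrier, 0 of 17 basal layer and junction, 0 of 8 sebaceous gland, 0 of 14 skeletal muscle, 0 of 8 adipocyte and 0 of 10 fibroblast and matrix genes passed, and 1 of 7 T cell genes, Cd3d, was higher (0.20 ± 0.05, limma adjusted p = 0.0275). In other comparisons Cd3d was lower with antibiotics at 18 h (-0.19 ± 0.05, limma adjusted p = 0.0183), beside 7.85% of all genes called. It was higher at 18 h against 0 h in water mice (0.17 ± 0.05, limma adjusted p = 0.0217), beside 14.1%. Cd3e was lower with antibiotics over all times (-0.09 ± 0.03, limma adjusted p = 0.0322), beside 6.65%. The list median of the hair follicle genes, relative to each gene's own median over 30 arrays, ran from -0.044 to 0.47 on antibiotic 6 h arrays and from -0.27 to 0.057 on water 6 h arrays. That of the melanocyte genes ran from -0.008 to 0.39 and from -0.33 to -0.17 on the antibiotic and water 6 h arrays, and that of the keratin-associated proteins from -0.32 to 1.70 and from -0.42 to 0.31. The epidermal barrier list ran from -0.082 to 1.34 on antibiotic and from -0.19 to 1.68 on water 6 h arrays. Other tissue differed as well: the muscle list reached 1.75 on antibiotic 6 h array 5, an array with 0 keratins in excess, and on the other antibiotic and all water 6 h arrays it was lower, down to -0.51 and -0.52. The fibroblast list ran from -0.29 to -0.003 on antibiotic and from -0.12 to 0.22 on water 6 h arrays, and the T cell list from -0.062 to 0.086 and from -0.074 to 0.001. The part of these differences in the keratin result was not tested. The values have no true 0, so no marker can be called absent.

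At 0 h, 0 of 48 keratins passed in limma, beside 0.0903% of all genes, and 0 of 48 had an unadjusted p under 0.05. Krt25 averaged 8.29 ± 1.49 with antibiotics and 8.05 ± 2.30 with water (SD, n = 5 each), and the difference of 0.24 ± 0.98 (SE) was smaller than that spread. At 18 h, 0 of 48 passed, beside 7.85% of all genes, and 0 of 48 had an unadjusted p under 0.05, where 20.0% of all genes did. Krt25 averaged 8.13 ± 1.64 with antibiotics and 7.01 ± 1.88 with water there, a difference of 1.12 ± 0.98. Over all times together 0 of 48 passed, beside 6.65% of all genes, and 10 of 48 had an unadjusted p under 0.05, all higher with antibiotics, where 7.75% of all genes were higher. The smallest adjusted p there was 0.0793, for Krt34, and Krt25 stood at 1.56 ± 0.56 (limma adjusted p = 0.1005). Leaving out antibiotic 6 h array 5 gave 4 called keratins over all times, water 18 h array 4 gave 3, and water 6 h array 3 and antibiotic 18 h array 3 gave 1 each.

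Time after oxaliplatin was compared within each treatment. At 6 h against 0 h, 0 of 48 keratins passed in antibiotic mice, beside 0% of all genes, with 14 of 48 at an unadjusted p under 0.05, all higher, where 4.57% of all genes were higher. By class these were 7 hair shaft, 3 basal, 2 outer root sheath and companion and 2 other keratins, with 0 of the inner root sheath and 0 suprabasal. Among them were Krt14 (1.24 ± 0.53, limma adjusted p = 0.439), Krt17 (1.43 ± 0.64, limma adjusted p = 0.457) and Krt79 (0.61 ± 0.28, limma adjusted p = 0.464). In water mice 0 of 48 passed at 6 h against 0 h, beside 1.11% of all genes, with 3 of 48 at an unadjusted p under 0.05. The inner root sheath keratins had medians of opposite sign in the treatments, 0.81 over the 8 in antibiotic mice and -0.79 in water mice, and no member passed in either. The difference itself, the interaction of antibiotics with the 6 h change, was called for 0 of 48 keratins and 0% of all genes. It had 18 of 48 keratins at an unadjusted p under 0.05, where 9.85% of all genes were, and its smallest adjusted p was 0.371, for Krt28 (1.87 ± 0.61). At 18 h against 0 h, 0 of 48 passed in antibiotic mice (beside 1.22% of all genes, 0 of 48 at an unadjusted p under 0.05) and 0 of 48 in water mice (beside 14.1%, 1 of 48). The interaction at 18 h was called for 0 of 48 keratins and 0.105% of all genes, with 0 of 48 at an unadjusted p under 0.05. The comparisons share the 0 h arrays within a treatment. The plot of 8 keratins by group shows the means against the spread of single arrays.

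**Figure D4:**
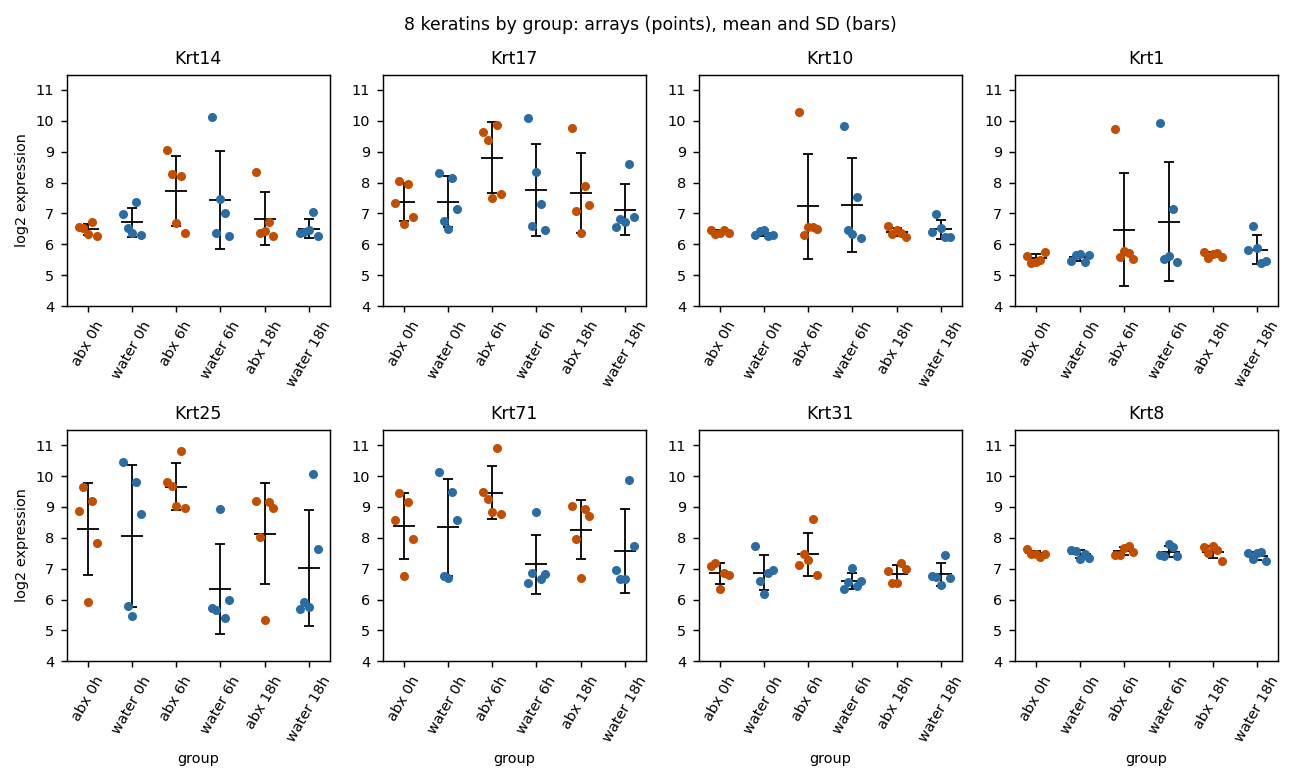
Each panel plots the log2 expression of 1 keratin, with points for the 5 arrays of each group (antibiotics, abx, left of water at each time) and bars for mean and SD. For Krt1 and Krt10 single 6 h arrays carry the mean, for Krt25 and Krt71 every antibiotic 6 h array lies high while the water arrays at 6 and 18 h are mostly low, and Krt8 is level throughout.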

How the data were processed

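The authors' deposited table holds log2 expression values of 28853 rows on 30 arrays, 1 array per tumour sample, made from 300 ng of total RNA each. The submitters' processing notes name Partek 6.6, with no role (summarisation and scaling not given in the sources used here). The medians of the arrays lay between 7.253 and 7.365, and no further scaling was applied. Precision is limited by the number of arrays. Separate mice are not stated in the labels, so p-values measure only how far these samples spread, which may be partly technical. Rows were named through the platform's probe table: 21775 had 1 symbol, 1578 had several and 5500 had none here. Of those with 1 symbol, 21684 were found by Entrez number, and 0 symbols changed. The row with the highest mean was kept per symbol, which gave 19938 genes. The array's rows come with no genome build, so only the RefSeq promoters carry coordinates.

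A linear model of the 6 group means was fitted to each gene (limma 3.58.1, R 4.3.3, 24 residual degrees of freedom), with 10 comparisons, two-sided tests and Benjamini-Hochberg adjustment over all genes in each. Genes with an adjusted p under 0.05 were called. Errors of fold changes are the model's SEs. The procedure was tested on simulated data with known changes and independent normal noise for each gene. Keratins that vary together and single high arrays were not simulated, so that test does not bear on the keratin calls. Alternatives were subtracting array medians, quantile normalisation, a filter on low genes, the mean of a gene's rows, array weights, fitting only the groups compared, leaving out each array, and for the excess other thresholds and other baselines. The keratins, their classes, the marker lists and the genes given array by array (marker keratins of each layer, every keratin called, and the leading genes of an array with 10 or more keratins in excess) were chosen with earlier results of these data known. Excess on an array is a description without a test, and each array itself enters the median it is set against.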

Additional observations from a re-analysis of the deposited data

Results flagged for a closer look

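In a group of 5 arrays, a single array was taken to stand apart where its gap to the nearest other, divided by the range of the group, was above 0.71. Of 114 groups examined (19 keratins in 6 groups), 18 had such an array. The cut gives about 1 in 20 for independent normal values. These keratins vary together and were chosen with earlier results known, so that rate is no measure for them. In all 18 groups the array standing apart was the highest. Antibiotic 6 h array 1 stood apart for Krt1 (9.73) and Krt10 (10.27). Antibiotic 18 h array 1 stood apart for Krt5 (9.38), Krt14 (8.33) and Krt79 (7.55). Water 18 h array 4 did so for Krt5 (8.35), Krt14 (7.04), Krt17 (8.59), Krt31 (7.46), Krt75 (8.24) and Krt28 (7.66). Water 6 h array 3 also did so for Krt25 (8.94), Krt71 (8.84), Krt75 (7.98), Krt35 (7.13), Krt72 (7.16) and Krt87 (8.04). Water 0 h array 1 stood apart for Krt87 (8.65). The keratins of an array are not independent of each other, so these counts do not stand for separate events. Water 6 h array 1 did not stand apart for Krt1, because water 6 h array 4 was high too (9.93 and 7.16).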

How the results depend on the processing

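The number of keratins called for antibiotics against water at 6 h, 6 as reported, was 2 with array medians subtracted, 3 after quantile normalisation, 3 with genes above the median gene only, 19 with array weights and 0 with only the groups compared. The filter to genes above the median gene removed Krt28, Krt34, Krt35, Krt72 and Krt73 before testing. Of the 6 keratins reported, only Krt87 could thus be among the 3 called there. With 1 array left out it ran from 0 to 18, and it was 0 without array 1 of both 6 h groups, an alternative chosen after seeing the data. Over all times the count of 0 became 2 with array weights and ran from 0 to 4 with 1 array left out. For 18 h against 0 h in water mice it became 1, Krt15, with only the groups compared. The count of 58 keratin and array pairs in excess was 135 at a threshold of 0.5 and 17 at a threshold of 2. Fold changes at 6 h that changed sign with array weights were those of Krt1 (0.094), Krt10 (0.25) and Krt8 (-0.014). With 1 array left out, they ran from -1.08 to 0.53 for Krt1, -0.80 to 0.60 for Krt10, -0.055 to 0.95 for Krt14, -0.030 to 0.23 for Krt15, -0.15 to 0.47 for Krt79 and -0.032 to 0.068 for Krt8. Fitting fewer arrays leaves fewer degrees of freedom, and for the other settings the cause was not tested. No paired analysis was possible because the labels number the samples consecutively from the first group to the last, so no number recurs between groups. Signal over background was not given, so whether a low keratin value is above background is unknown.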

Other observations

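The 4 keratins whose symbols end in a letter fall outside the rule used above. Krt6a and Krt6b, partners of Krt16 and Krt17 that are switched on in wounded epidermis, lay 1.09 and 1.79 above their own medians on antibiotic 6 h array 1, and 3.43 and 5.03 above on array 1 of the water 6 h group, where Krt6b was further above its median than any other gene. Krt6a was also 2.04 above its median on antibiotic 6 h array 2, 2.18 on antibiotic 18 h array 1 and 1.38 on antibiotic 6 h array 4, and Krt6b was 1.13 above on antibiotic 6 h array 2 and likewise on antibiotic 18 h array 1. The hair shaft keratins Krt33a and Krt33b were 2.72 and 1.07 above their medians on antibiotic 6 h array 4, and 2.14 and 0.76 on water 0 h array 1. Krt33a was also 1.15 above on antibiotic 6 h array 2 and 1.49 on water 18 h array 4. On water 6 h array 1 they lay at -0.84 and -0.29. None of the 4 passed for antibiotics against water at 6 h in limma, with adjusted p-values of 0.113 for Krt33a, 0.101 for Krt33b, 0.816 for Krt6a and 0.655 for Krt6b.

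Some skin genes outside the barrier list were also high on array 1 of both 6 h groups. Of 8 sebaceous gland genes, 2 were in excess on water 6 h array 1 (list median 0.34), against 0.502% of all genes. The median of that list was at most 0.69 on any antibiotic 6 h array. Far2, a fatty acid reductase on that list, lay 2.75 above its median on antibiotic 6 h array 1 and 1.73 on water 6 h array 1. Elovl4, which makes the very long fatty acids of the skin barrier, lay 3.94 and 3.48 above on the same arrays, and the defensin gene Defb6 lay 3.75 and 3.82 above. Defb6 was also more than 1 above its median on antibiotic 18 h array 1 (2.49), antibiotic 6 h array 4 (1.96), water 6 h array 4 (1.56) and water 18 h array 4 (1.27), and Elovl4 on antibiotic 6 h array 4 (1.80), antibiotic 18 h array 1 (1.43) and water 6 h array 4 (1.43). Sprr1b, an envelope protein induced by stress and one of the 22 barrier genes, differed between array 1 of the 2 groups, at 0.68 on the antibiotic 6 h array and 3.79 on the water 6 h array.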
